A study of Bos taurus with 8 samples.

Results

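The genes of ketone body synthesis and use described here are BDH1, BDH2, ACAT1 and OXCT1, measured in the rumen papillae of dairy cows on a low-concentrate and a high-concentrate diet. Their probes were found on the arrays through the RefSeq accession that the scanner output gives for each probe. Of the 4 genes, 1 was matched in this way, BDH2 (RefSeq NM_001034488, also named DHRS6), by 1 probe printed as 2 spots on each array. BDH1, ACAT1 and OXCT1 were not matched to a probe by accession and are not analysed here. In all, 7788 gene symbols were matched among the 21475 probes of the array.

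Ketone bodies are small acids that the liver makes from fatty acids in fasting, and that other tissues burn as fuel. In ruminants the epithelium of the forestomach is a further source, because it turns much of the butyrate that it absorbs from rumen fermentation into 3-hydroxybutyrate before the acid reaches the blood. ACAT1 joins acetyl-CoA units in the mitochondrion at the start of ketone body synthesis, and BDH1 interconverts acetoacetate and 3-hydroxybutyrate. OXCT1 activates acetoacetate where ketone bodies are used. BDH2 is a cytosolic dehydrogenase of the short-chain dehydrogenase family, first described as a second 3-hydroxybutyrate dehydrogenase and also known for a role in iron handling.

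The study asked how a grain-rich ration changes gene expression in the rumen wall. Papillae, the leaf-shaped folds that line the rumen, were taken from 4 female lactating Holstein cows that carried a rumen cannula and received both diets in a crossover of 2 periods. At the start the cows weighed 460 ± 16.4 kg and were 84 ± 25 d in milk. The LC group received a ration with 40% concentrate in the dry matter and the HC group a ration with 70%, and papillae were taken 4 h after the morning meal on d 21 of a period, of which 11 d were adaptation. Cows 1 and 2 received LC in period 1 and HC in period 2, and cows 3 and 4 received them in the reverse order. Each group thus held 4 arrays, 1 per cow, and the same 4 cows made up both groups, with no arrays from before the first diet among those analysed here. The arrays of period 1 were all on one slide and those of period 2 on another, so period and slide cannot be told apart. In the table of normalized values that was deposited beside the scanner output, the columns of cows 1 and 2 are exchanged on both diets, so each value given here for one of these cows may belong to the other.

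The signal was a single-colour fluorescence intensity with an array median of 92.0 to 132 in the LC group and 100.7 to 123 in the HC group, and the scanner software marked 76.9 to 81.2% of an array's probes as well above background. A probe was counted so on an array only where all its spots were marked. Of the 17 squamous epithelium markers looked for, 10 were matched, and 9 of these, among them KRT14, KRT15, DSP and IVL, were well above background on all 8 arrays, while TP63 was so on none. Markers of smooth muscle (7 of 7), fibroblasts (7 of 7), leukocytes (5 of 10) and endothelium (3 of 6) were matched too, and all matched ones were well above background on all 8 arrays. RNA of the whole papilla was measured, so fewer cells of a type and less RNA per cell cannot be told apart.

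BDH2 was measured well above background on all 8 arrays, with overlapping levels on both diets. In the LC group its quantile-normalized log2 signal was 11.89 in cow 1, 11.91 in cow 2, 12.03 in cow 3 and 11.99 in cow 4. In the HC group it was 11.95 in cow 1, 12.15 in cow 2, 11.88 in cow 3 and 12.17 in cow 4. The groups overlapped: the lowest and the highest of the 8 values, those of cows 3 and 4, were both HC values, and all 4 LC values lay between them. The HC minus LC difference was 0.06 in cow 1, 0.24 in cow 2, -0.16 in cow 3 and 0.18 in cow 4, so HC was higher in 3 of 4 cows.

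**Figure D1:**
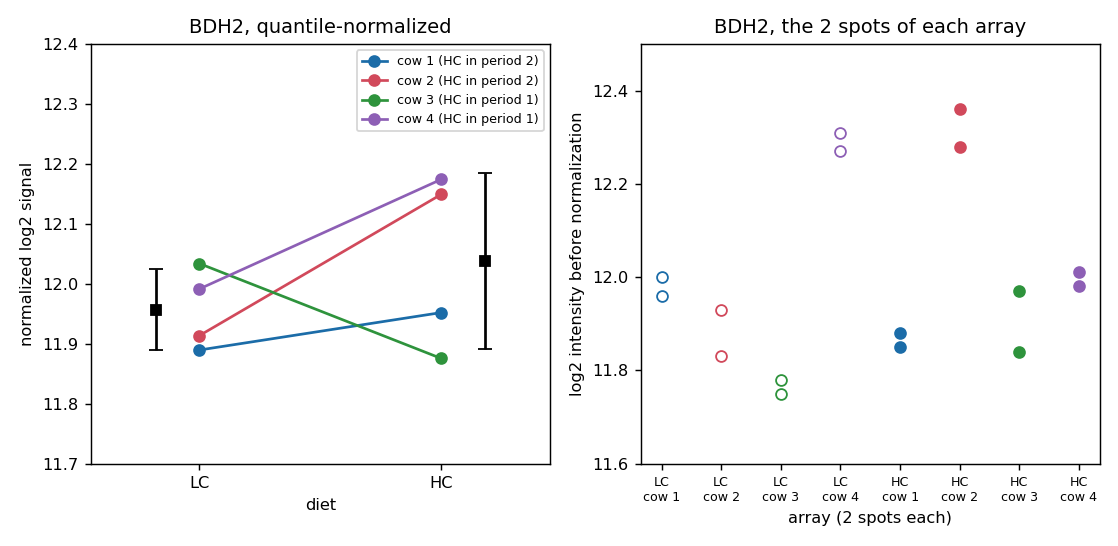
BDH2 on the 8 arrays. Left, the normalized log2 signal (vertical axis) on the LC and HC diets, with a line for each cow and black squares for the group means with bars of 1 SD (n = 4). Right, the log2 intensity of the 2 spots of each array before normalization, with open circles for LC and filled circles for HC. The lines of cows 1, 2 and 4 slope upward and that of cow 3 slopes downward, and the spots of an array lie within 0.13 of each other. In the right panel the HC spots lie below the LC spots in cows 1 and 4 and above them in cows 2 and 3.

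The mean normalized log2 signal of BDH2 was 11.96 ± 0.07 on LC and 12.04 ± 0.15 on HC (SD, n = 4 each). The HC minus LC difference was 0.08 (standard error 0.11), a 1.06-fold higher mean on HC, and it was smaller than the spread between the HC arrays. The unadjusted p from limma, with diet, period and their interaction as terms, was 0.474, and the Benjamini-Hochberg adjusted p over all probes was 0.9995. Permuting the diet among the 8 arrays in all possible ways gave an exact two-sided permutation p of 0.371, where the smallest possible is 0.0286. That test ignores that each cow gave an array on both diets. With the diets exchanged only within each cow, the exact permutation p was 0.375, where the smallest possible is 0.125. The 95% interval of the difference ran from -0.18 to 0.34, or from 0.885-fold to 1.26-fold, so it held no change as large as the 1.5-fold by which a diet difference was called. Among all 21475 probes, 0.922% were called for diet, with at least a 1.5-fold change and an unadjusted limma p under 0.05. An unadjusted p under 0.05 alone was reached by 3.65% and an adjusted one by 0%, and in 1.6% the groups did not overlap. BDH2 was in none of these sets.

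The 8 BDH2 values spanned 0.30 on the log2 scale, which is 1.23-fold. The 4 LC arrays were close to each other, and among the 16030 probes measured above background on every array 5.61% had a smaller SD among their LC arrays. The HC arrays of BDH2 were further apart, and 35.5% of these probes had a smaller SD on HC. Over these probes the HC arrays had the larger SD in 46.2%, as BDH2 did. Before normalization the BDH2 spots had intensities of 3443 to 5241, and the 2 spots of an array differed by 0.02 to 0.13 on the log2 scale (median 0.04). At that stage the HC spots lay below the LC spots in cows 1 and 4 and above them in cows 2 and 3. In cows 1, 3 and 4 this is opposite to the normalized difference, so the sign in these cows depends on the scaling between arrays. The gaps between spots are therefore no measure of the precision of the normalized differences. No BDH2 spot was saturated.

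BDH2 was not called for period either. Its period 2 minus period 1 difference in log2 signal was 0.07 (standard error 0.11, limma unadjusted p = 0.541, 95% interval -0.19 to 0.32). The HC minus LC difference was 0.12 within period 1 and 0.04 within period 2. Within a period the diets were on different cows, so each of these values is also a difference between cows, and they average to the main diet difference. The diet difference in period 2 minus that in period 1, which in this crossover amounts to setting cows 1 and 2 against cows 3 and 4, was -0.09 (standard error 0.21, limma unadjusted p = 0.701, 95% interval -0.60 to 0.43). Fitted by limma to cow means, this contrast had an unadjusted p of 0.740. Leaving out single arrays moved the BDH2 diet difference between 0.01, without HC cow 4, and 0.16, without HC cow 3, and no setting gave a call. The plot of the BDH2 difference under each setting shows the diet differences that have a standard error, and not those within a period.

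**Figure D2:**
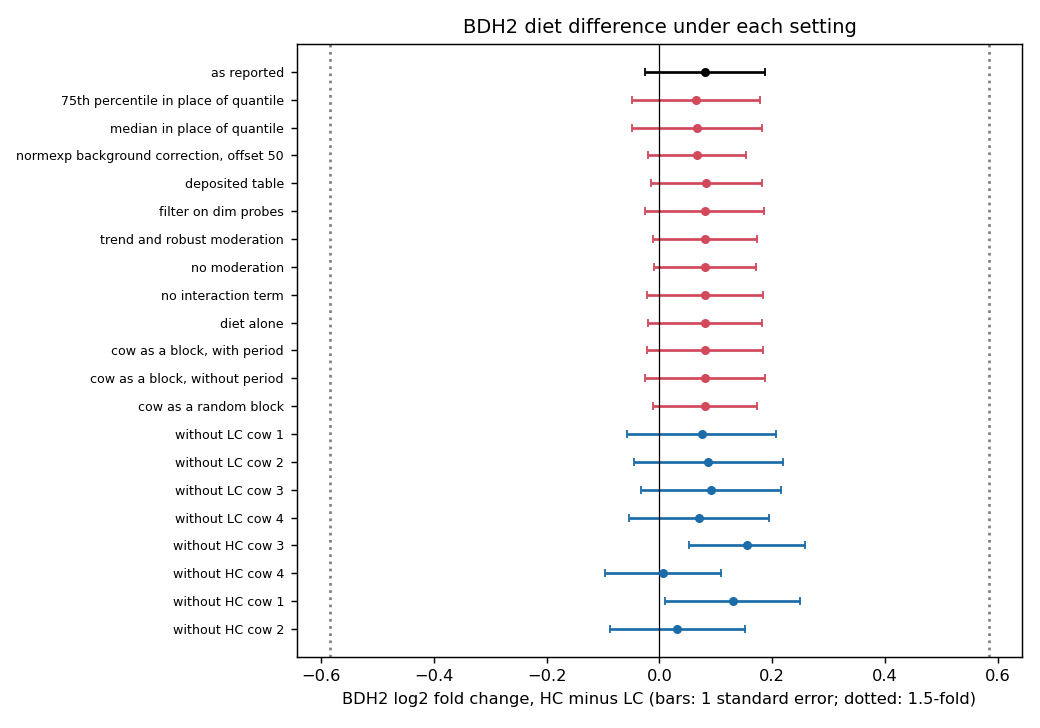
BDH2 log2 fold change, HC minus LC (horizontal axis), under each way of processing (vertical axis). Points are the estimates, bars are 1 standard error, and dotted lines mark a 1.5-fold change; black is the value as reported, red an alternative and blue an analysis without 1 array. All points lie between 0.01 and 0.16 and all bars stay inside the dotted lines.

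Of 5 other genes tied to ketone bodies that were looked for, AACS and OXCT2 were matched. HMGCLL1, HMGCS1 and ACAT2 were not matched to a probe by accession and are not analysed here. Neither AACS nor OXCT2 was called for diet. Levels of different probes are not set against each other here, and each gene is compared only with itself.

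AACS (RefSeq NM_001163929), which activates acetoacetate in the cytosol for lipid synthesis, differed more between cows than between diets. Its normalized log2 signal on LC was 9.13, 8.67, 8.42 and 8.96 in cows 1 to 4, and on HC it was 8.90, 8.57, 8.43 and 8.80. Cow 1 was the highest and cow 3 the lowest on both diets, but in the deposited table the columns of cows 1 and 2 are exchanged, and there cow 2 was the highest. The HC minus LC difference was -0.12 (standard error 0.19, limma unadjusted p = 0.556, exact permutation p = 0.543 over all arrays and 0.25 within cows, 95% interval -0.58 to 0.34), with a lower signal on HC in 3 of 4 cows. Without LC cow 4 the sign turned. OXCT2 (RefSeq NM_001098153), a close relative of OXCT1 known from testis, was well above background on 0 of 8 arrays, so no fold change is given. On the LC array of cow 1, 1 of its 2 spots was marked well above background, with an intensity of 25.7 against 1.65 in the other.

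**Figure D3:**
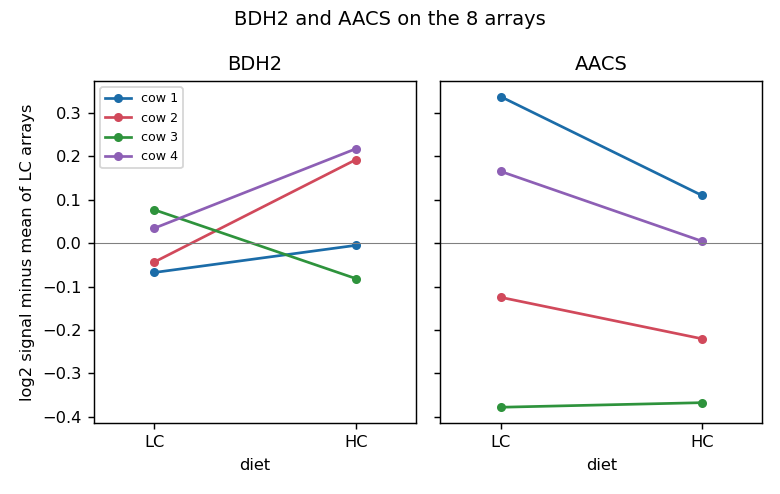
BDH2 (left) and AACS (right), both well above background on all 8 arrays. The vertical axis is the normalized log2 signal minus the mean of the gene's own LC arrays, the horizontal axis the diet, and each line is 1 of the 4 cows. In neither panel do the lines of all cows slope the same way, and the lines of AACS lie further apart than those of BDH2.

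The genes whose signal followed that of BDH2 most closely over the 8 arrays were looked for among the 6468 genes well above background on all of them. The 8 arrays come from 4 cows and 2 slides and are not independent, so the coefficients are descriptions. The 3 highest were CITED2, a transcriptional co-regulator, with a Pearson r of 0.954 (n = 8), PGAP3, an enzyme that remodels the membrane anchor of proteins, with 0.938 (n = 8), and GPATCH3 with 0.932 (n = 8). The median r with BDH2 over all of these genes was -0.01. Within each diet CITED2 repeated the order of the cows in BDH2, with larger steps on HC: its normalized log2 signal was 11.02, 11.09, 11.24 and 11.14 on LC in cows 1 to 4, and 11.07, 11.68, 10.66 and 11.73 on HC. As with BDH2, cow 3 was the lowest and cow 4 the highest of the HC values, and the HC arrays of cows 2 and 4 stood above all LC arrays. The 3 genes were picked from 6468 by their r over these same 8 arrays. The shared order therefore follows from that choice and is no separate result. None of the 3 was called for diet, with differences of 0.16, 0.14 and 0.12 and intervals that held 0. Over 4 other ways of making the values, r with BDH2 was 0.930 to 0.972 for CITED2, 0.884 to 0.940 for GPATCH3 and 0.765 to 0.943 for PGAP3. These ways use the same 8 arrays and are no independent check. AACS had an r of -0.162 with BDH2 over the 8 arrays.

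**Figure D4:**
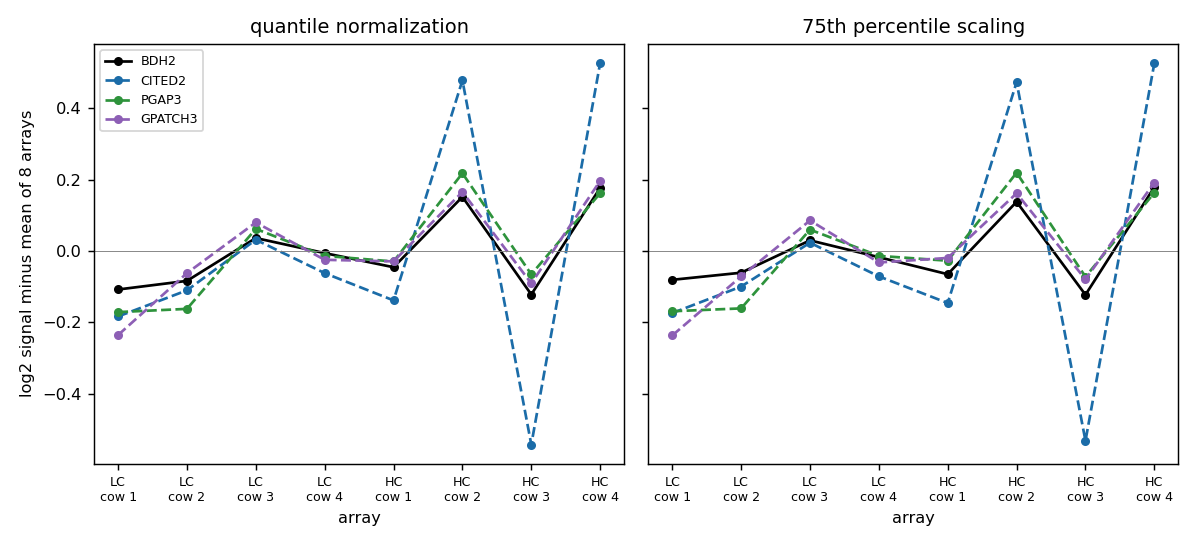
Normalized log2 signal minus the gene's mean over 8 arrays (vertical axis) on each array (horizontal axis), after quantile normalization (left) and after scaling to the 75th percentile (right). The solid line is BDH2, and dashed lines are CITED2, PGAP3 and GPATCH3. The dashed lines, of genes picked for their r with BDH2 on these arrays, rise and fall with it. The exception is GPATCH3 from LC cow 4 to HC cow 1 in the right panel. CITED2 has the widest swings.

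Around these genes, 78 genes of ketone body metabolism and connected pathways were looked for, BDH2 and the other 3 genes included, and 42 were matched, 39 of them well above background on all 8 arrays. Of the 42, 19 had a higher and 23 a lower mean on HC, the median log2 fold change was -0.02, against -4.5e-05 over all probes, and 1 was called for diet, against 0.922% of all probes (0.494% higher and 0.428% lower). The 1 gene was ACSM4, a medium-chain acyl-CoA synthetase, which had a lower mean on HC (limma unadjusted p = 0.00294, adjusted p = 0.9995) but was well above background on 0 of 8 arrays, so this is no measurement of its level and no fold change is given. The study lists ACSM4 among its differentially expressed genes, as lower on HC. With cow as a block, 2 genes were called, ACSM4 and OXCT2, neither of them above background. None of the 42 had groups that did not overlap, and 4 changed the same way in all 4 cows, against 11% of all probes. Of these 4, OXCT2 and ACSM4 were not well above background on any array, and the others were HSD17B10, a dehydrogenase of isoleucine degradation, lower on HC, and HIBADH, higher on HC. The adjusted p of each of the 42 genes was 0.9995 or more. For the diet by period term, 5 of the 39 genes measured on all 8 arrays had an unadjusted limma p under 0.05, against 10.2% of all probes. With the cow as the unit, 1 of the 39, which was among these 5, had an unadjusted limma p under 0.05, against 5.96% of all probes.

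**Figure D5:**
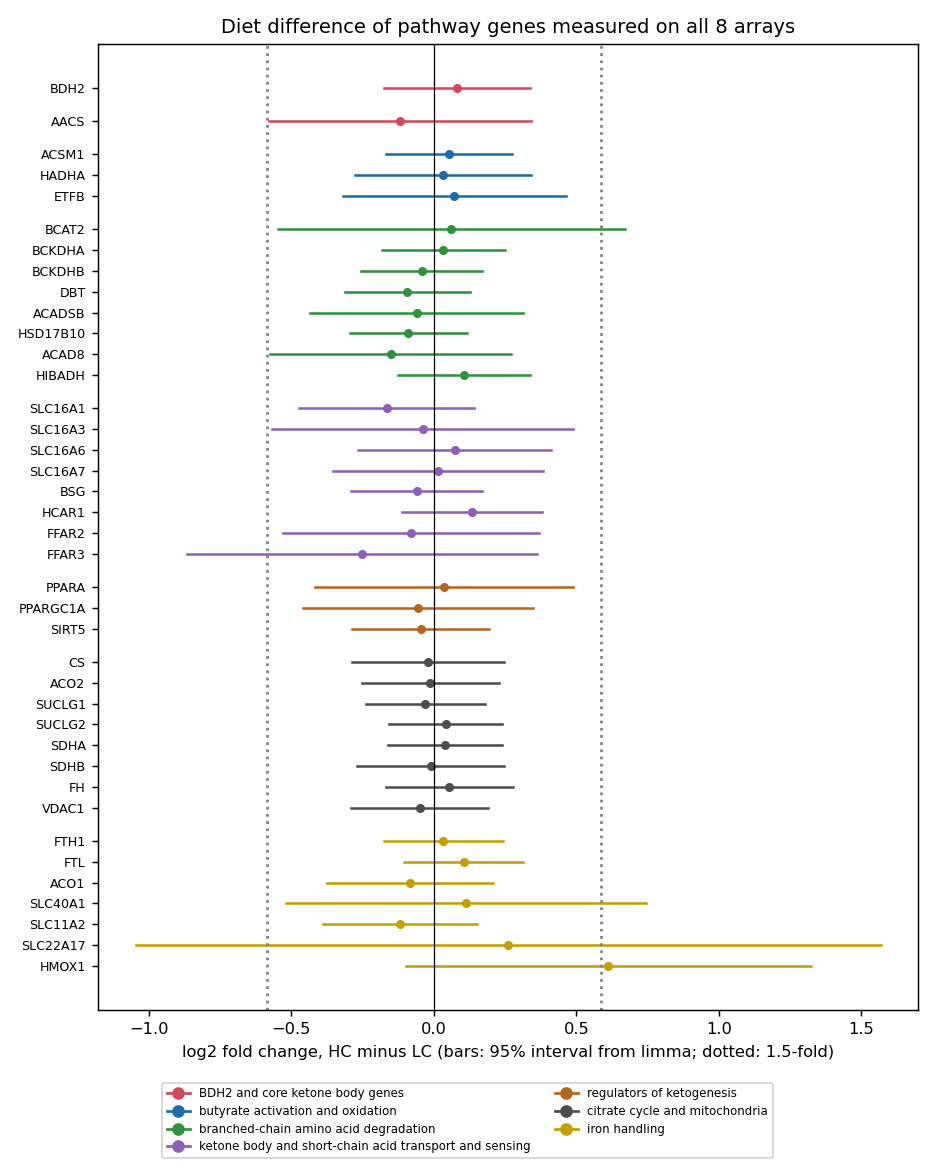
Log2 fold change, HC minus LC (horizontal axis), of the 39 pathway genes well above background on all 8 arrays (vertical axis), coloured by list. Points are limma estimates, bars are 95% intervals and dotted lines mark a 1.5-fold change. All bars cross 0, and 1 point, HMOX1, lies beyond a dotted line.

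Butyrate, the main substrate for ketone bodies in the rumen wall, is activated to its CoA ester and shortened by beta-oxidation. Of 13 genes of acyl-CoA activation and of fatty acid beta-oxidation in general 4 were matched, and 3 of the 4 were well above background on all 8 arrays. ETFB, a subunit of the flavoprotein that takes electrons from acyl-CoA dehydrogenases, differed by 0.07 on the log2 scale (standard error 0.16, exact permutation p = 0.657 over all arrays and 0.5 within cows). ACSM1, a mitochondrial acyl-CoA synthetase that accepts butyrate, differed by 0.05 (standard error 0.09, exact permutation p = 0.743 over all arrays). HADHA, a subunit of the trifunctional protein of beta-oxidation, differed by 0.03, and its second probe by 0.01. ACSM1 had a period 2 minus period 1 difference of -0.31 on the log2 scale (limma unadjusted p = 0.0136, adjusted p = 0.260). It was 1 of 2 genes among the 39 with an unadjusted period p under 0.05, against 12.3% of all probes, and the other was HCAR1, a lactate receptor, with -0.32 (limma unadjusted p = 0.0190, adjusted p = 0.288). Both signals were low, with means of 4.77 on LC and 4.82 on HC in ACSM1 and 5.22 and 5.35 in HCAR1. The deposited log2 values had a median of 6.79. Period and slide are the same split here.

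Leucine degradation ends in acetoacetate and acetyl-CoA, isoleucine degradation passes through ACAT1 to acetyl-CoA and propionyl-CoA, and valine degradation ends in propionyl-CoA without ACAT1. Of 15 genes 9 were matched, 8 of them well above background on all 8 arrays, and 0 were called. The 2 largest diet differences were in valine degradation, which yields no ketone bodies. ACAD8, the isobutyryl-CoA dehydrogenase, differed by -0.15 on the log2 scale (standard error 0.17, exact permutation p = 0.457 over all arrays and 0.25 within cows). HIBADH, which oxidizes 3-hydroxyisobutyrate, differed by 0.10 (standard error 0.10). In HIBADH the HC array exceeded the LC array in 4 of 4 cows, with differences of 0.02 to 0.16. Its groups still overlapped, and the exact permutation p was 0.143 over all arrays and 0.125, the smallest possible, within cows.

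Ketone bodies and short-chain fatty acids leave or enter cells through monocarboxylate transporters and are sensed by receptors on the cell surface. Of 9 such genes 8 were matched, all well above background on all 8 arrays, and 0 were called. FFAR3, a receptor for short-chain fatty acids, differed by -0.25 on the log2 scale (standard error 0.25, exact permutation p = 0.371 over all arrays and 0.625 within cows). It was lower on HC in 3 of 4 cows, while cow 4 was higher by 0.80. SLC16A1, the monocarboxylate transporter MCT1, differed by -0.17 (standard error 0.13, exact permutation p = 0.400 over all arrays and 0.25 within cows) and was lower in 3 of 4 cows. The transporters SLC16A3, SLC16A6 and SLC16A7 and the chaperone BSG had differences of -0.06 to 0.07.

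Among regulators of ketogenesis 3 of 9 genes were matched, and 0 were called. PPARA, a nuclear receptor that drives fatty acid oxidation in liver, differed by 0.04 on the log2 scale (standard error 0.19). PPARGC1A, its coactivator, differed by -0.06 (standard error 0.17), and SIRT5, which removes succinyl groups from mitochondrial enzymes, by -0.05 (standard error 0.10). Of 13 genes of the citrate cycle and the mitochondrion 8 were matched, and their 8 log2 fold changes lay between -0.05 (VDAC1, the channel of the outer membrane) and 0.05 (FH, fumarase). Their standard errors lay between 0.08 and 0.11.

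BDH2 has also been described as an enzyme of a mammalian iron-binding compound, so genes of iron handling were included. Of 10 genes 7 were matched, all well above background on all 8 arrays, 5 higher and 2 lower on HC, with a median log2 fold change of 0.10 and 0 called. HMOX1, the heme oxygenase that frees iron from heme, had the largest difference of all pathway genes measured on 8 arrays. Its normalized log2 signal on LC was 10.83, 11.34, 10.03 and 10.85 in cows 1 to 4, and on HC it was 11.99, 10.96, 11.29 and 11.27. HC was higher in 3 of 4 cows and lower in cow 2, and the groups overlapped. The mean difference was 0.61 (standard error 0.29), 1.53-fold, with a limma unadjusted p of 0.0796 and an exact permutation p of 0.114 over all arrays and 0.25 within cows, so it missed the call. It passed without LC cow 4 (0.82) or without HC cow 2 (0.87). SLC22A17, a receptor for the siderophore-binding protein lipocalin, had a log2 fold change of 0.26 with a standard error of 0.54, and the ferritin chains FTH1 and FTL had 0.03 and 0.10.

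In the RefSeq gene table (ARS-UCD2.0) the neighbours of BDH2 are TACR3 and CENPE on one side and SLC9B2, SLC9B1, CISD2 and UBE2D3 on the other. Of these, TACR3, SLC9B2 and UBE2D3 were matched to a probe. UBE2D3, a ubiquitin-conjugating enzyme, was well above background on all 8 arrays and differed by 0.03 on the log2 scale (standard error 0.17, limma unadjusted p = 0.869). TACR3, a tachykinin receptor, was so on 3 LC and 4 HC arrays and differed by 0.13 (standard error 0.14, limma unadjusted p = 0.397). SLC9B2, a sodium proton exchanger, was so on 1 LC and 3 HC arrays, and no difference is given for it.

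None of the matched markers of epithelium, smooth muscle, fibroblasts, leukocytes or endothelium was called for diet. The summed normalized intensity of the epithelial markers was 830000 to 1117000 on LC and 902800 to 1088000 on HC. That of the smooth muscle markers was 21130 to 26500 on LC and 20630 to 28830 on HC, and that of the leukocyte markers 1690 to 2180 on LC and 1577 to 2643 on HC. These ranges overlapped between the diets for every list, and so did those of the fibroblast and endothelial lists.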

How the data were processed

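Rumen papillae of 4 cows on 2 diets were hybridized to 8 single-colour bovine oligonucleotide arrays, 4 per diet. For each array the authors deposited the scanner output (Feature Extraction 10.7.3.1), whose intensity values are background-subtracted per spot, with low values replaced by a small positive number, and are not normalized between arrays. A table of quantile-normalized log2 values, likewise deposited, was used as an alternative. Control and outlier spots were left out, and the log2 intensities of the other spots were quantile-normalized with limma 3.58.1 in R 4.3.3 and averaged per probe. Signal over background stands for depth, and the number of arrays limits the precision. Probes were named by RefSeq accession through the ARS-UCD2.0 gene table: of 10176 probes with an accession, 8297 were named. The brightest probe stood for a gene. The array's annotation is of another build (HGSC Btau_3.1), so no positions are given, and no probe or gene sequence was used here.

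Diet, period and their interaction, the terms of the study's model, were fitted to all 21475 probes with limma (4 residual and 2.26 prior degrees of freedom, prior SD 0.182), with Benjamini-Hochberg adjustment. A call was a fold change of at least 1.5 with an unadjusted p under 0.05. The fit was tested on simulated data. Single genes had an exact two-sided permutation test (scipy 1.17.1). Pandas 2.3.3 and matplotlib 3.10.9 in Python 3.11.15 made tables and plots. The arrays of a cow are paired by the labels: deviations from the diet mean correlated with r = 0.285, 0.298, 0.467 and 0.113 in cows 1 to 4 across 16030 probes. The fit has no cow term, so its p values take the 8 arrays as independent, although they come from 4 cows. A permutation within cows was added after seeing the data. Alternatives were the 75th percentile, median and normexp (offset 50, on the median spot signal), the deposited table, a filter on dim probes, other moderation and terms, cow as a block, and leaving out each array.

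The genes and lists were chosen with earlier results of these data known. Named genes were the 4 genes of ketone body synthesis and use, 5 further ketone body genes, called list genes, the 2 largest differences per list measured on all arrays, and the 3 genes most like BDH2. HADHA, HSD17B10, HCAR1, the other transporters, PPARA, FTH1, FTL, the neighbours of BDH2 and the genes with a diet by period p under 0.05 were named after their values were seen. Some genes of the pathway are not reported here.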

Additional observations from a re-analysis of the deposited data

Results flagged for a closer look

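Among the 39 pathway genes well above background on all 8 arrays, 5 had a diet difference in period 2 that departed from that in period 1 at an unadjusted limma p under 0.05, where 10.2% of all probes did. In this crossover that contrast equals cows 1 and 2 against cows 3 and 4, both diets together, so a steady difference between the cows would give it too, and these cannot be told apart. SLC16A7, a monocarboxylate transporter, had a value of -1.31 on the log2 scale (unadjusted p = 0.00461, adjusted p = 0.358). Its normalized log2 signal was 3.15, 2.79, 3.90 and 3.78 on LC and 3.33, 3.07, 3.87 and 3.40 on HC in cows 1 to 4, so cows 3 and 4 were above cows 1 and 2 on both diets. Its signal was low on every array, where the deposited log2 values had a median of 6.79. Its second probe was well above background on 1 of 8 arrays.

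ACADSB, the dehydrogenase of isoleucine degradation, had -0.99 (unadjusted p = 0.0173, adjusted p = 0.415). Its signal was 14.73, 14.33, 15.05 and 15.09 on LC and 14.75, 14.28, 15.09 and 14.84 on HC, again higher in cows 3 and 4. DBT and BCKDHA, subunits of the branched-chain ketoacid dehydrogenase, had -0.54 (unadjusted p = 0.0228, adjusted p = 0.435) and -0.44 (unadjusted p = 0.0487, adjusted p = 0.488). SUCLG2, a subunit of succinyl-CoA synthetase, had -0.47 (unadjusted p = 0.0265, adjusted p = 0.445). Fitted by limma to cow means, this contrast had an unadjusted p of 0.0208 in SLC16A7, 0.0548 in ACADSB, 0.0677 in DBT, 0.132 in BCKDHA and 0.0928 in SUCLG2. It thus stayed under 0.05 in 1 of the 5 genes. The 5 genes were picked by this same contrast, so their share cannot be set beside the 5.96% of all probes.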

How the results depend on the processing

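The BDH2 diet difference stayed above 0 and uncalled under all 20 alternatives. The filter on dim probes, other moderation and terms, and cow as a block cannot move the estimate here, so its sign under them is no check. It was 0.06 to 0.08 with other scalings, normexp or the deposited table, and 0.01 to 0.16 with 1 array left out. The values within a period, 0.12 and 0.04, compare different cows and average to the main difference. With cow as a replicate block the BDH2 diet difference was 0.08 (exact permutation p = 0.375 within cows, limma unadjusted p = 0.476 with period, 0.482 without period, 0.417 as a random block), and among the pathway genes the block changed the call of OXCT2 alone. With 1 array left out, the BDH2 period difference was -0.0063 to 0.14, turning below 0 without HC cow 3, and the diet by period difference -0.23 to 0.064, turning above 0 without HC cow 4 or HC cow 1 (0.013). The AACS diet difference lay between -0.25 and 0.017 with 1 array left out, above 0 without LC cow 4. The causes were not tested.

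Probes called for diet numbered 198, against 8 after normexp, 415 in the deposited table (where 5 had an adjusted p under 0.05, against 0, and 1358 an unadjusted one, against 784), 75 with the filter on dim probes (16544 probes tested), 105 without moderation, and 239 to 404 without 1 array. Pathway genes called numbered 0 after normexp and with the filter, which removes ACSM4, and 2 (ACSM4 and OXCT2) with median scaling, in the deposited table, with diet alone and in each of the 3 fits with a block by cow. Without 1 array they numbered 1 to 2, with OXCT2 added without LC cow 2 and HMOX1 without LC cow 4 or HC cow 2. No scaling moved the median fold change of all probes by over 0.01. In the deposited table the columns of cows 1 and 2 followed each other's array on both diets (r = 0.999 against 0.994 to 0.995), so the names of these cows are uncertain, while the groups are not affected. The pairing of cows 1 and 2 holds if the same source is right on both diets, which was not tested. The mean over the probes of a gene gave no further value for BDH2, which has 1 probe. With 4 cows, small differences are not detectable: the BDH2 interval was -0.18 to 0.34.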
